A study of Mus musculus with 8 samples.

Results

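Of the 11556 CTCF peaks on chromosomes 1 to 19 that lens fiber cells shared with lens epithelium, 4362 lay away from every chromatin loop anchor that was called. These 4362 peaks are described here. A peak of the lens fiber list was taken when it overlapped a peak of the lens epithelium list by at least 1 bp and did not touch an anchor of any loop called in lens epithelium, lens fiber cells or embryonic stem (ES) cells, each anchor being widened by 5 kb on both sides. The peaks were thus selected on measured values, namely a call in both lists and the absence of a called loop, and neither property is a finding. They made up 37.7% of the shared peaks (95% interval 36.9 to 38.6%) and 18.9% of the 23132 fiber peaks on these chromosomes. The widened anchors covered 19.8% of the span of these chromosomes. The other 7194 shared peaks lay at loop anchors, and 4972 fiber peaks away from anchors had no partner in the epithelium list. Both sets serve for comparison.

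The data came from Hi-C on 3 cell types with 2 replicates each and from CTCF ChIP-seq on the lens cells with 1 peak list per cell type. Lens epithelium, the proliferating layer at the front of the lens, and lens fiber cells, the elongating cells that fill it, were microdissected from newborn CD-1 mice at postnatal day 0.5. Each Hi-C replicate pooled 30 lenses and the ChIP-seq used 200 lenses. The ES cells were wild type v6.5 cells grown without feeders in the presence of LIF, and no genotype or treatment differed between the lens groups. The authors merged the Hi-C replicates before they called loops with HiCCUPS and topologically associated domains (TADs) with Arrowhead, so that each list stands alone and has no replicate error. No expression was measured in these files, so the purity of the dissected cells could not be checked against marker genes. With a single list per cell type, cell types were compared without a test. Intervals are 95% Wilson intervals for shares and Katz intervals for ratios of shares. They cover counting error only, since peaks are not replicates. The labels give 1 ChIP-seq sample per cell type while the methods speak of replicates, so each list was treated as 1 sample, and the read depth behind the peaks was not analysed here.

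CTCF is a zinc finger protein that binds a long, asymmetric DNA sequence. The ring-shaped cohesin complex extrudes chromatin loops and is held where it meets CTCF bound in the right orientation, so that many loops and TAD borders end at CTCF sites. CTCF also binds at many sites where no loop is seen, among them promoters. Mature lens fiber cells later lose their nuclei.

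The sequence under the peaks could be read only at promoters. In the RefSeq promoter windows of GRCm38.p6, the assembly that matches mm10, the core CTCF consensus of 14 positions was searched on both strands. Each window holds 300 bases, 250 before and 50 after a transcription start. Of the peaks away from anchors, 22 lay in a window with a core that matched at every position. The 8 sequences printed first belong to those with the highest fold enrichment in lens fiber cells whose core and 20 flanking bases on each side lay before the start. Capitals mark the core, the sequence is given on the strand on which the core reads, and the start is that of the gene named. The last sequence, all in lower case and read on the gene's strand, holds the 54 bases around the summit in the strongest window with no match at up to 2 mismatches.
Rint1, chr5:23787607-23787660, plus strand: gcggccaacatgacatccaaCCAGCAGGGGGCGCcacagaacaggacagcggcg
Agfg1, chr1:82839358-82839411, plus strand: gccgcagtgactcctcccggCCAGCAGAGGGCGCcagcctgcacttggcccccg
Gm17197, chr19:56356596-56356649, plus strand: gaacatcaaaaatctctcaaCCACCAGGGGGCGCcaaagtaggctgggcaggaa
C1rb, chr6:124570200-124570253, plus strand: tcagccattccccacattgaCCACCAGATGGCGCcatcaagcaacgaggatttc
Kif1b, chr4:149307891-149307944, minus strand: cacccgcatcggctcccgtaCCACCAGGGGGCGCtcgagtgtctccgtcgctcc
Rsad1, chr11:94549266-94549319, minus strand: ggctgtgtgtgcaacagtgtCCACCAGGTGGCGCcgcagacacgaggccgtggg
Cryz, chr3:154596612-154596665, plus strand: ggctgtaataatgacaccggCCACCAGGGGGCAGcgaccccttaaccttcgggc
Tsfm, chr10:127030876-127030929, minus strand: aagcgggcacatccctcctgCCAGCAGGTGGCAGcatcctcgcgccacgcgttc
Spg20, chr3:55111976-55112029, plus strand: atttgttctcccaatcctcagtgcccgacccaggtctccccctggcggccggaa

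The 8 cores held 7 distinct sequences, and all 8 read on the strand of the gene. At Rint1, which encodes a protein of vesicle tethering between Golgi and endoplasmic reticulum, the peak reached 14.9-fold enrichment over background in lens fiber cells and 8.68-fold in lens epithelium. Its core ended 70 bases before the start and the nearest loop anchor was 62.2 kb away. Cryz encodes zeta-crystallin, a quinone oxidoreductase that serves as a lens crystallin in some mammals. Its peak was 11.8-fold enriched in fiber cells and 7.02-fold in epithelium, with the summit 0.5 bp from the middle of the core. At Agfg1, which encodes a protein related to nucleoporins, the peak was 14.7-fold enriched in fiber cells and 6.43-fold in epithelium. The peak at Tsfm, the gene of a mitochondrial translation elongation factor, was 11.3-fold enriched in fiber cells and 6.75-fold in epithelium. In the window without a match, the peak at Spg20, which encodes spartin, reached 13.3-fold and 9.41-fold. These genes were named after their values were seen, and the windows were picked by their fiber fold.

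In all, 112 peaks away from anchors had their summit in a promoter window, and 66 of these windows (58.9%, 49.7 to 67.6%) held the core at up to 1 mismatch. Over all 31396 windows the share was 2.34%. Windows with a shared peak at an anchor held it in 60.6% of 175 cases (53.2 to 67.5%), an interval that overlaps the first widely. Windows with a fiber peak that had no partner in epithelium and lay away from anchors held it in 19.7% of 335 cases (15.8 to 24.3%). The share with the core thus differed by more than counting error between shared and fiber-only peaks, and a difference between shared peaks with and without an anchor was not detectable at these numbers. The median distance from summit to the middle of the core was 14.5 bp, and 87.9% of the 66 cores lay within 50 bp of the summit. The core read on the gene's strand in 46 of the 66 windows (69.7%, 57.8 to 79.4%), beside 61.4% of the 735 windows with a core among all promoters (57.8 to 64.8%). These intervals overlap. A match of letters describes the sequence, and windows without one were not examined for other forms of the CTCF sequence. A window can end inside a peak, so that part of some peaks was not searched.

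**Figure D1:**
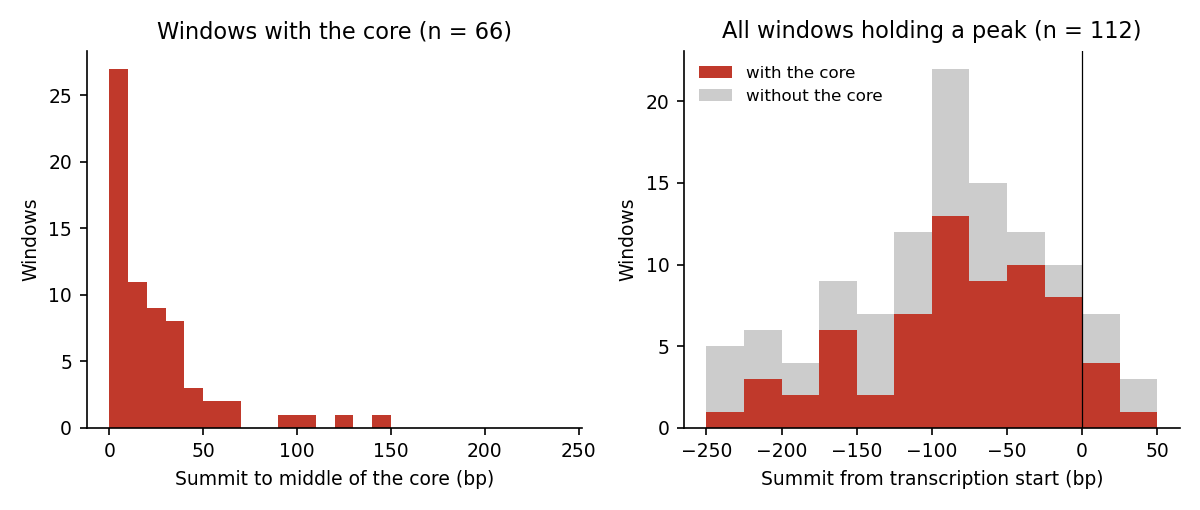
Peaks away from loop anchors in promoter windows. The left panel shows the distance from summit to the middle of the core consensus in bp (x axis) against the number of windows (y axis) for the 66 windows with the core, most of them near 0. The right panel shows the summit position relative to the transcription start in bp, with start at 0 and negative values upstream, for all 112 windows, split into those with the core (red) and without it (grey).

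In strength, the peaks away from anchors had lower values than those at anchors in lens fiber cells and nearly the same values in lens epithelium. Strength is given as the fold enrichment of a peak over the background that MACS2 estimated, which is relative to the peak's own library. In the fiber list the peaks away from anchors had a median fold enrichment of 6.87 (middle 50% from 5.58 to 8.67). Shared peaks at anchors had 8.13 (6.55 to 10.0), and fiber-only peaks away from anchors 5.39 (4.67 to 6.35). In the epithelium list the medians of the shared peaks were 6.08 (5.17 to 7.44) away from anchors and 6.22 (5.26 to 7.52) at anchors. Only 31.2% of the peaks away from anchors (29.9 to 32.6%) exceeded the anchor median in the fiber list, against 47.0% (45.5 to 48.5%) in the epithelium list. The median was below that of anchor peaks on 19 of 19 chromosomes in the fiber list and on 14 of 19 in the epithelium list. Peaks away from anchors were 281 bp wide at the median in the fiber list, those at anchors 306 bp and fiber-only peaks 227 bp.

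**Figure D2:**
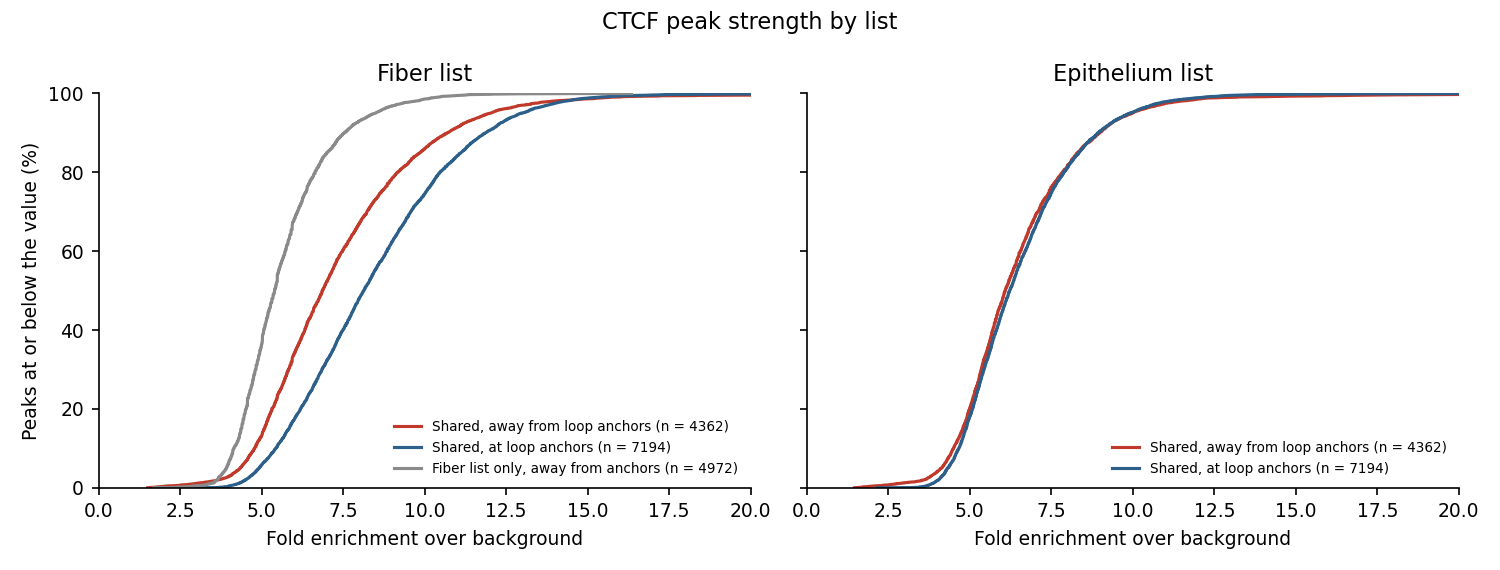
Cumulative distribution of peak strength in the fiber list (left) and the epithelium list (right). The x axis is fold enrichment over background and is cut at 20, and the y axis is the percentage of peaks at or below that value. Shared peaks away from anchors (red, median 6.87) lie between fiber-only peaks (grey, 5.39) and anchor peaks (blue, 8.13) in the fiber list, while red and blue nearly coincide in the epithelium list.

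The same difference appeared when all shared peaks were ranked. By decile of fiber fold, the share away from anchors was 58.4% (55.6 to 61.2%) in the weakest decile and 24.7% (22.3 to 27.3%) in the strongest, and each decile had a lower share than the weaker one before it. Ranked by epithelium fold, the share was 43.8% in the weakest decile and between 33.9% and 38.9% in all others, without a steady order.

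**Figure D3:**
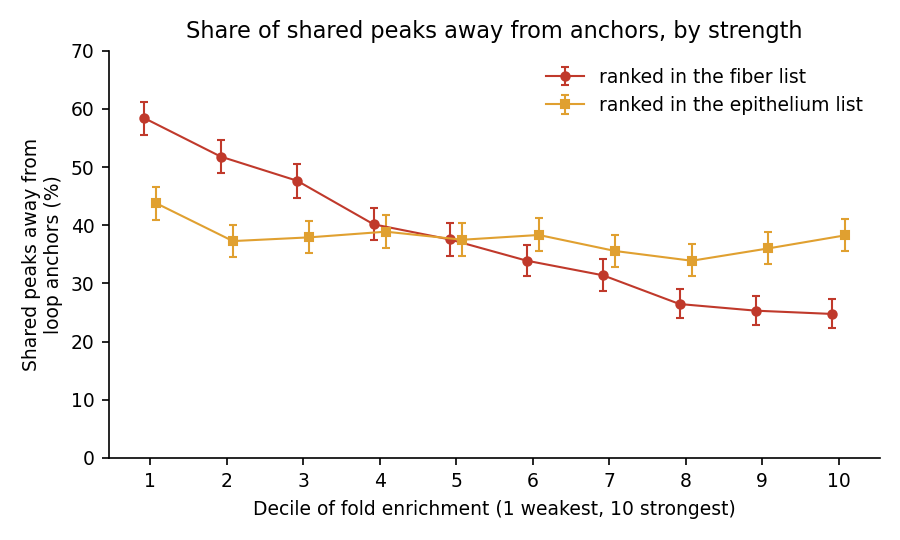
Percentage of shared peaks that lay away from loop anchors (y axis) by decile of fold enrichment (x axis, 1 weakest, 10 strongest), ranked in the fiber list (circles) or the epithelium list (squares). Error bars are 95% Wilson intervals. The fiber series runs from 58.4% down to 24.7%, and the epithelium series has no such slope.

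Compared peak by peak, 65.2% of the peaks away from anchors (63.8 to 66.6%) had the higher fold enrichment in the fiber list, against 79.6% of those at anchors (78.6 to 80.5%). The ratio of these shares was 0.819 (0.800 to 0.840). The median log2 ratio of fiber to epithelium fold was 0.16 away from anchors and 0.36 at anchors, and it was lower away from anchors on 19 of 19 chromosomes. Because each list is scaled to its own background, the ratio itself carries no absolute level, and only its difference between sets of peaks is read here. Over the 4362 peaks the folds of both lists had a Spearman correlation of 0.436, which describes peaks of a single pair of libraries. The summits of both lists lay 29 bp apart at the median, and 71.9% (70.5 to 73.2%) were within 50 bp of each other.

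This ratio depended on the distance to a transcription start. Peaks away from anchors whose summit lay within 500 bp of a start had a median log2 ratio of 0.51 (middle 50% from 0.19 to 0.79), with a median fold of 8.79 in fiber cells and 6.05 in epithelium. Of these 187 peaks, 86.1% (80.4 to 90.3%) were stronger in the fiber list. At 0.5 to 5 kb from a start the ratio was 0.17, at 5 to 50 kb again 0.17, and beyond 50 kb 0.08, where 60.5% (57.8 to 63.2%) were stronger in the fiber list. The fiber fold therefore differed with distance to a start, while the median epithelium fold stayed between 6.05 and 6.15. Shared peaks at anchors had a similar ratio of 0.54 within 500 bp of a start, but kept a ratio of at least 0.33 at every other distance.

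**Figure D4:**
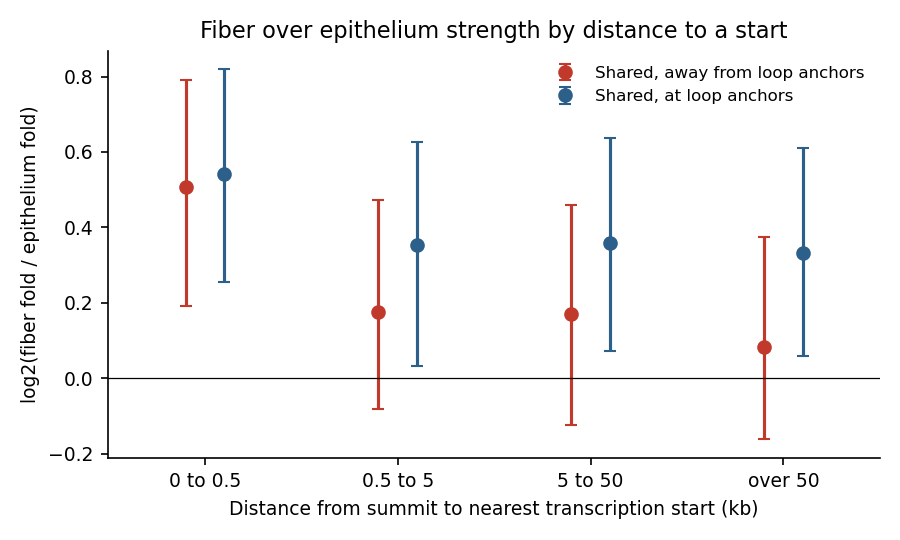
log2 ratio of fiber to epithelium fold enrichment (y axis) by distance from the summit to the nearest transcription start in kb (x axis). Points are medians and bars span the middle 50% of peaks. Both sets are near 0.5 within 0.5 kb of a start, and elsewhere the peaks away from anchors (red) are at 0.17 or less while the anchor peaks (blue) stay at 0.33 or more.

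The share of peaks at genes' starts was compared between sets of peaks. How much of the span lies that near a start was not computed, so the share cannot be called low or high. Starts were known on all chromosomes used except 18, which was not analysed here for them, and 4261 peaks could be placed. Of these, 187 (4.39%, 3.81 to 5.05%) lay within 500 bp of a start. The share was 3.84% among anchor peaks, a ratio of 1.14 whose interval from 0.952 to 1.37 includes equality. It was 11.6% (10.7 to 12.5%) among fiber-only peaks away from anchors, 2.64 times as high (2.25 to 3.10) and higher on 18 of 18 chromosomes. A further 2.21% (1.81 to 2.69%) lay within 500 bp of the 3′ end of a gene. Protein-coding gene bodies held 43.6% of the peaks, and 45.4% lay outside every annotated gene. More of the peaks away from anchors were remote from starts, with 29.9% (28.5 to 31.3%) over 50 kb away against 24.8% (23.8 to 25.8%) of anchor peaks.

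Among protein-coding genes, 2901 of 20665 had a peak away from anchors in the body or within 10 kb of it, which is 14.0%. The share for shared peaks at anchors was 22.1%. Genes with such a peak were longer, with a median of 31.2 kb against 17.5 kb over all genes. Of 19 genes in the list of alpha-, beta- and gamma-crystallins and their relatives, which include the main soluble proteins of the lens, 2 had a peak, as had 1 of 24 lens transcription factors, 4 of 20 genes of the fiber membrane and cytoskeleton, and 2 of 22 genes of lens signalling. Of the genes for CTCF and the cohesin machinery, 1 of 13 on these chromosomes had one. Of 11 further genes at loci that the study drew, 0 had one. Drawn loci already in the lists above, among them Bfsp2 and Prox1, were not counted again there. These lists are too short to place their shares above or below 14.0%. Shared peaks at anchors were found at 6, 7, 6, 6, 4 and 3 genes of the same lists.

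The genes of this list with a peak were Crybg1 and Crybg2, which encode large proteins with the crystallin fold, and no alpha-, beta- or gamma-crystallin gene of the list had one. Cryz, whose promoter peak is given above, belongs to another protein family and was not on the list. Crybg1 held a peak in its body, 5.82-fold enriched in fiber cells and 4.36-fold in epithelium. Crybg2 had 2 peaks, with 4.96-fold and 4.76-fold in the body, and 6.27-fold and 5.81-fold just past its end. Prox1, which encodes a homeodomain factor needed for fiber elongation, had a peak 1.80 kb past its end. It was 4.80-fold enriched in the fiber list and 6.27-fold in the epithelium list. All 4 of these peaks were below the median of the set in the fiber list.

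The highest fiber folds at genes of the lists were found in the group of the fiber membrane and cytoskeleton. Lctl, which encodes a klotho-related protein of the lens, had a peak of 8.97-fold in fiber cells and 7.39-fold in epithelium 2.97 kb inside the gene. A second peak, 1.01 kb past the end, reached 11.9-fold and 7.24-fold. Lim2, the gene of an abundant intrinsic membrane protein of fiber cells, had a peak 6.90 kb upstream of the gene with 10.3-fold in fiber cells and 6.65-fold in epithelium. Bfsp2, which encodes the beaded filament protein phakinin, held a peak of 5.18-fold and 4.61-fold. Hspb1, a small heat shock protein gene, had one 8.67 kb past its end with 4.66-fold in fiber cells and 5.58-fold in epithelium. The peaks at Lim2 and Lctl were above the upper quartile of the set in the fiber list (8.67), and those at Bfsp2 and Hspb1 were below the lower quartile (5.58). Rbpj, the DNA-binding factor of Notch signalling, had a peak 0.717 kb past its end with 4.54-fold in fiber cells and 4.93-fold in epithelium. Fzd6, a Wnt receptor gene, had one 3.10 kb outside its body with 5.61-fold and 5.78-fold. Zfp143, which encodes a zinc finger protein found at many promoters and CTCF sites, held a peak of 9.52-fold in fiber cells and 6.55-fold in epithelium, 8.82 kb from the nearest anchor.

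The genes with the most peaks in their body were long genes. Atxn1 (ataxin 1), Camta1 (a calmodulin-binding transcription activator) and Wwox (a WW domain oxidoreductase) held 6 each. Dnah8 (an axonemal dynein chain), Lsamp (a neuronal adhesion protein), Mtus2 (a microtubule-associated protein), Rimbp2 (a protein of the presynaptic active zone), Sfi1 (a centrin-binding protein) and Tmem132c held 5 each. Atxn1, of 415 kb, had peaks from 5.46-fold to 9.84-fold in fiber cells and from 4.23-fold to 9.31-fold in epithelium, and no shared peak at an anchor. Wwox had peaks from 4.63-fold to 7.26-fold in fiber cells and 3 shared peaks at anchors. Rimbp2, with peaks of 4.11-fold to 10.1-fold, also had none at an anchor. Sfi1 differed from the others in its short body of 71.5 kb and in strength, since its 5 peaks were between 2.01-fold and 2.87-fold in fiber cells and between 1.97-fold and 2.72-fold in epithelium.

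The nearest loop anchor of any cell type was 41.7 kb away at the median, with the middle 50% of peaks between 18.2 and 105 kb and the largest distance 4386 kb. Just inside the limit, 119 peaks with an anchor 5 to 6 kb away had median folds of 6.93 in fiber cells and 6.01 in epithelium. Just outside it, 122 shared peaks with an anchor 4 to 5 kb away had 7.75 and 5.96. Between 5 and 10 kb from an anchor 60.6% lay in a gene and beyond 500 kb 33.2%. The share within 500 bp of a start had no steady order, with 3.81% at 5 to 10 kb, 6.25% at 10 to 25 kb, 5.08% at 25 to 50 kb, 4.24% at 50 to 100 kb, 2.73% at 100 to 500 kb and 1.72% beyond. The median fiber fold was 6.94 at 5 to 10 kb and 6.27 beyond 500 kb, where 235 peaks lay, and the median log2 ratio of fiber to epithelium fold was 0.21 and 0.07.

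**Figure D5:**
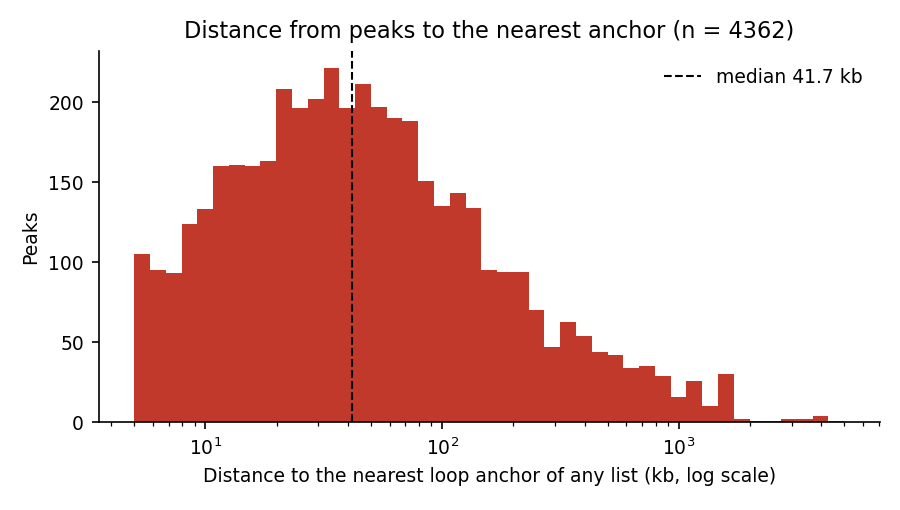
Number of peaks away from anchors (y axis) by distance to the nearest loop anchor of lens epithelium, lens fiber or ES cells in kb (x axis, log scale), for all 4362 peaks. The dashed line marks the median of 41.7 kb, and the distribution begins at the limit of 5 kb.

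Relative to domains, 14.6% of the peaks (13.6 to 15.7%) lay within 25 kb of a border of a lens fiber TAD. Such stretches covered 5.28% of the span outside the widened anchors. Fiber-only peaks away from anchors had 12.9% (12.0 to 13.9%). For anchor peaks the share was 43.5%, 2.97 times as high (2.75 to 3.21) and higher on 19 of 19 chromosomes. Loops and TADs were called on the same maps, so that the choice of peaks away from anchors lowers their share at borders. With the TAD list of lens epithelium the shares were 9.97% away from anchors and 32.3% at anchors, and with that of ES cells 20.1% and 49.8%. The peaks were not gathered inside loops. A lens loop of up to 3 Mb enclosed 46.9% of them (45.4 to 48.4%), whereas the interiors of these loops covered 68.4% of the span outside the widened anchors. Fiber-only peaks had 50.7% (49.3 to 52.1%). Shared peaks at anchors had 49.3% (48.2 to 50.5%), where loop interiors covered 67.9% of the whole span. A share below the covered span was thus not particular to the shared peaks away from anchors, since fiber-only peaks had it too. Interiors run between the anchors, so a peak within an anchor is by definition outside the interior of that loop. Peaks away from anchors inside such a loop had a median fiber fold of 6.67 and those outside 7.13, with 6.11 and 6.07 in epithelium. Outside both the lens loops and the lens TADs lay 1990 of the peaks (45.6%).

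The peaks away from anchors were spaced more widely than those at anchors. Another summit of the fiber list lay within 10 kb of 19.8% of them (18.6 to 21.0%), against 37.1% (36.0 to 38.3%) of anchor peaks, a ratio of 1.88 (1.76 to 2.01). The share was lower away from anchors on 19 of 19 chromosomes. It was 16.7% (15.7 to 17.7%) for fiber-only peaks. Within 50 kb, 70.3% of the peaks had another summit. The median distance to the next summit was 28.2 kb away from anchors and 16.4 kb at anchors. When peaks of the set were joined at up to 10 kb, 3904 remained single and 161 formed pairs, and 12 runs of at least 4 peaks held 76 peaks. The largest run held 27 peaks over 37.5 kb on chromosome 9, from 3000460 to 3037999, near Mir101c. Their fold enrichment was low, from 1.50 to 3.57 in fiber cells and from 1.46 to 3.34 in epithelium. Their significance was not low, with a median −log10 q of 19.6 in the fiber list. The next run held 7 peaks in the interferon zeta cluster on chromosome 4, at Ifnz and neighbouring gene models, and another held 5 peaks at Duxf3 on chromosome 10. Of the runs, 5 lay on chromosome 5, some of them at or near gene models of the Speer4 family. Peaks in these runs had a median of 3.39-fold in fiber cells and 3.12-fold in epithelium, against 6.92-fold and 6.12-fold for the other 4286. The median −log10 q was 15.4 in the runs and 10.2 for the others. Over the pooled runs a low fold thus did not go with low significance, but single runs differed. The median −log10 q ran from 4.90 in a run on chromosome 5 (from 14987158) to 84.4 in a run on chromosome 2 (from 98662665). Some runs were below the 10.2 of the other peaks. The local background was not examined.

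The strongest peaks formed a small set of their own. Ranked by the worse rank over both lists, the first was in Chl1, which encodes a neural adhesion molecule of the L1 family. It was 29.8-fold enriched in fiber cells and 28.4-fold in epithelium, 30.6 kb from the nearest anchor. The second, on chromosome 12 from 3109772 to 3110212, had 29.3-fold and 27.3-fold, and the nearest coding gene was Rab10. The third lay on chromosome 10 near Gm9923 (27.8-fold and 27.0-fold) and the fourth in 2210408I21Rik on chromosome 13 (27.7-fold and 27.1-fold). The others were 0.873 kb from Wls (24.0-fold and 22.9-fold), near A630089N07Rik (23.0-fold and 22.3-fold), Vmn2r-ps1 (23.6-fold and 20.3-fold), Gm9631 (22.9-fold and 19.7-fold), Gm20762 (22.6-fold and 20.5-fold) and Tmem196 (21.7-fold and 21.6-fold). Above 20-fold in both lists there were 10 of the 4362 peaks away from anchors and 3 of the 7194 at anchors.

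Of the 10 peaks named above by rank, 6 were the last peak of the fiber list on their chromosome. Of the same 10, 7 lay within 500 kb of the first or last one, as did 111 (2.54%) of all peaks in the set. On 17 of the 19 chromosomes the last fiber peak belonged to the set. Those 17 peaks had a median of 18.1-fold in fiber cells (8.68 to 24.0) and 19.1-fold in epithelium (6.80 to 22.9), both far above the medians of the set. This place was noticed after the values were seen, and it was not tested.

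By chromosome, the share of shared peaks that lay away from anchors ran from 27.7% on chromosome 18 (23.4 to 32.6%, 101 of 364 peaks) to 46.8% on chromosome 8 (42.9 to 50.7%, 295 of 631). These intervals do not overlap. Chromosomes 12, 5, 14 and 4 followed chromosome 8 with 44.6%, 43.4%, 43.4% and 43.2%, within each other's intervals.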

How the data were processed

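The authors aligned Hi-C reads of 2 replicates per cell type with BWA, merged them with Juicer and called loops (HiCCUPS, Juicer Tools 2.13.06 per the file headers) and TADs. They called CTCF peaks with MACS2, whose deposited lists give per peak a fold enrichment (a ratio to background), a score, and −log10 p and q values. The build is mm10 per the labels. Peaks, anchors and TADs were compared in Python 3.11.15 (pandas 2.3.3, numpy 2.4.6, scipy 1.17.1; figures by matplotlib 3.10.9). The functions were tested on simulated intervals.

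The selected peaks and the gene lists were chosen with earlier results of these data known. Genes named are those at the 10 strongest peaks, those of the lists with a peak within 10 kb, and those with most peaks (9 because of ties). Genes and transcription starts are RefSeq's. No genome was given, so the consensus was searched in promoter windows, in place of 200 bp around every summit. Samples fell into groups as labelled. Alternatives concerned the overlap, q limit, peak strength, anchor width and lists, gene, TAD and loop limits, and mismatches. Starts on chromosome 18 were not analysed here.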

Additional observations from a re-analysis of the deposited data

How the results depend on the processing

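Alternatives numbered 87, of which 52 left the value near the main one and 35 moved it. No paired analysis was possible because the deposited lists merge the replicates of each cell type or come from 1 sample, and for the same reason no replicate could be left out. With shared peaks defined by summits within 100 bp or by 50% reciprocal overlap, 13.3% and 13.6% of coding genes had a peak away from anchors. With the stronger 50% of each list there were 1714 such peaks, and 38.3% exceeded the anchor median in the fiber list. At starts lay 5.46%, inside lens loops 42.9% and within 10 kb of another summit 8.23%. The other summits were also those of the stronger 50%, so that fewer neighbours were available. In this setting 68.3% of promoter windows held the core and 6.20% of genes had a peak. With anchors not widened, 17.7% lay at TAD borders, 22.8% had a near summit and 16.9% of genes had a peak. With anchors widened by 25 kb there were 2857 peaks, 7.46% at borders and 42.4% inside loops, and 8.39% of genes had one. With lens anchors only, the shares were 16.4% at borders, 21.6% with a near summit and 17.2% of genes. Taken from the epithelium list, 47.0% exceeded the anchor median of that list and 16.3% had a near summit of that list. Both measures thus changed along with the list. At starts lay 6.36% within 1 kb, 3.26% for coding genes only and 9.10% for either end of any gene. At borders lay 6.12% within 10 kb, 26.6% within 50 kb, 9.97% with epithelium TADs and 20.1% with ES cell TADs. Inside lens loops of any size lay 69.5%, and the span that these covered was not computed. Inside ES cell loops of up to 3 Mb lay 42.2%, and these covered 50.2% of the span outside the widened anchors. Within 50 kb 70.3% had another summit, and without runs of 4 or more peaks 18.4% within 10 kb. The core was found in 19.6% of windows with no mismatch and in 86.6% at up to 2 mismatches. Over all 31396 promoter windows these shares were 0.347% and 14.5%. Gene bodies without widening held a peak in 7.87% of genes. The removal of runs, the count of either gene end and the tolerance of 2 mismatches were chosen after seeing the data. Precision is limited by 1 peak list per cell type and by 112 promoter windows.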

Other observations

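The sex chromosomes and the mitochondrial genome were outside the selected set, and their values were as follows. On chromosome X, 214 of 357 shared peaks (59.9%) lay away from loop anchors, with a median of 6.70-fold in fiber cells. On chromosome Y all 39 shared peaks did, with a median of 5.79-fold. The mitochondrial genome held 4 shared peaks, none at an anchor, with a median of 2.02-fold. The loop anchors called on each of these were not counted. Where no loop is called, every peak lies away from anchors, so these shares do not describe the peaks alone.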
